A study of Homo sapiens with 9 samples.

Results

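MYH9 and EIF3A were the protein-coding genes with the most DHX34 seCLIP peaks across an exon edge, 6 in MYH9 and 5 in EIF3A, and are described here peak by peak. These 11 peaks are all of the peaks of the deposited list, 11 of 2261, that lay inside the GENCODE release 44 spans of the genes on GRCh38. The genes were chosen on this number of edge-crossing peaks, so that their crossing is a description and not a finding. In seCLIP (single-end enhanced crosslinking and immunoprecipitation), irradiated cells hold RNA bound covalently to nearby proteins, an antibody recovers 1 of these proteins, and the RNA that comes with it is read by sequencing. All libraries came from UV-crosslinked HEK293T, a human embryonic kidney line. The 5 tagged libraries came from 1 clone of this line, A5, whose DHX34 carried GFP and FLAG, and were prepared with anti-GFP. As controls, 4 libraries were made from the untagged line, which are also labelled anti-GFP although their titles call them input. The list was taken to merge the calls of the tagged libraries, which it does not itself state. It holds no value per library, no strand and no read count, so that no spread between replicates, no depth behind a peak and no p-value can be given from it.

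DHX34 is an RNA helicase of the DExH box class that takes part in nonsense-mediated decay, the pathway that degrades mRNAs with premature stop codons. The question behind the mapping was where DHX34 touches RNA and whether it binds pre-mRNA that has not been spliced. A 5' splice site is the junction of the downstream end of an exon with the intron that follows, and a 3' splice site is the junction of an intron with the exon after it. MYH9 encodes the heavy chain of non-muscle myosin IIA, an actin motor with a globular head and a long rod in which pairs of chains wind around each other as a coiled coil. EIF3A encodes the largest subunit of eIF3, the factor that helps to bring the small ribosomal subunit to mRNA, and its carboxy-terminal part is rich in charged residues and holds a tandem repeat.

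MYH9 (ENSG00000100345.23) lies on the minus strand at chr22:36281280-36388010, and its MANE Select transcript (ENST00000216181.11), the reference model used here, has 41 exons. EIF3A (ENSG00000107581.14) lies on the minus strand at chr10:119033670-119080817, and its transcript (ENST00000369144.8) has 22 exons. No other annotated gene on either strand overlapped any of the 11 peaks, so the minus strand was used for all of them. The fourth column of the list, a whole number from 1 to 4 whose meaning is not stated, was 1 for all 11. It was also 1 for 2209 of the 2261 peaks of the list.

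The 5' splice sites under the peaks show where the peaks left the exons. Each of the following stretches from GRCh38 runs 5' to 3' on the gene strand, with 20 nt of exon and 20 nt of intron, and the capitals mark the 9 nt of the splice site, 3 in the exon and 6 in the intron.
MYH9 exon 23: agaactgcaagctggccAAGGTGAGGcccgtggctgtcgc
MYH9 exon 24: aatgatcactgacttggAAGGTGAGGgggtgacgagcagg
MYH9 exon 28: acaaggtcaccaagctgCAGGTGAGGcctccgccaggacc
MYH9 exon 31: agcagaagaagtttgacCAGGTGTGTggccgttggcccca
MYH9 exon 32: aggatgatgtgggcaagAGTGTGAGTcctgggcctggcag
MYH9 exon 33: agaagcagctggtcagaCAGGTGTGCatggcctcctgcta
MYH9 exon 34: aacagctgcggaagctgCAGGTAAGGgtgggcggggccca
MYH9 exon 38: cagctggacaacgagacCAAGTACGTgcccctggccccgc
EIF3A exon 12: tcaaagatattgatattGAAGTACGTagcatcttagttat
EIF3A exon 16: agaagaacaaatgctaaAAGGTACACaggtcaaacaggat
EIF3A exon 17: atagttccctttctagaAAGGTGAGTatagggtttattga
EIF3A exon 19: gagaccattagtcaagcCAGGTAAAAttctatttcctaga
EIF3A exon 21: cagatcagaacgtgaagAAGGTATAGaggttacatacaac
All 8 sites of MYH9 and all 5 of EIF3A had GT at the start of the intron. The other bases varied between sites, although MYH9 exons 23 and 24 had the same 9 nt, AAGGTGAGG, and some other sites came close to it. Long exons of the same genes with no peak had these sites, shown for comparison.
MYH9 exon 26, no peak: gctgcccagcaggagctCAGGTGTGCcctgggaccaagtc
MYH9 exon 22, no peak: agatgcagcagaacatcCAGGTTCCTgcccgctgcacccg
EIF3A exon 6, no peak: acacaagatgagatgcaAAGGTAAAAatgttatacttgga
EIF3A exon 20, no peak: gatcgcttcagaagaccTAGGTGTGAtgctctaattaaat
The site CAGGTGTGC stood both under a peak, at MYH9 exon 33, and at MYH9 exon 26, which had none.

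The narrowest peak of each gene is shown whole, with the intronic part in capitals. Both hold a purine-rich part of an exon up to its end, followed by a short run of intron. Several of the other peaks have a different layout, as described below.
MYH9 exon 23, chr22:36300086-36300205, minus strand: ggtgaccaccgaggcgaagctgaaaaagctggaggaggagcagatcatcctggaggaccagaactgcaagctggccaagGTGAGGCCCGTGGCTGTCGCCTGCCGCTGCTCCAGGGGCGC
EIF3A exon 16, chr10:119050485-119050629, minus strand: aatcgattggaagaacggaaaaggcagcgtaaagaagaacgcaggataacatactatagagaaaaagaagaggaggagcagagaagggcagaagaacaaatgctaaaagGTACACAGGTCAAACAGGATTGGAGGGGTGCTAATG

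In MYH9 the 6 peaks were numbered along the transcript, and all lay between exons 23 and 38. The first, of 120 nt, began 59 nt into exon 23 and ended 41 nt past its 5' splice site. The second (chr22:36298874-36299054, 181 nt) covered all 124 nt of exon 24, with 12 nt of the intron before it and 45 nt of the intron after it. It was the 1 peak of either gene that began in an intron. The third (chr22:36294046-36294251, 206 nt) began 47 nt into exon 28 and ended 46 nt past it. The fourth (chr22:36291979-36292206, 228 nt) held 221 nt of exon 31 and only 7 nt of intron. The fifth (chr22:36288207-36289263) was 1057 nt wide and ran from 34 nt inside exon 32, through exon 33 and exon 34, to 45 nt past exon 34. It covered the introns between these exons, of 145 and 313 nt, in full, so that 503 nt of it were intronic and 554 nt exonic. Broad peaks were called and the list gives no read count, so whether reads lay throughout these introns cannot be told. The sixth (chr22:36285117-36285318, 202 nt) held 198 nt of exon 38 and 4 nt of intron. The gaps between neighbouring peaks ran from 1031 to 4622 nt.

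In EIF3A each of the 5 peaks lay over 1 exon and crossed its 5' splice site alone. The first (chr10:119057909-119058161, 253 nt) began 142 nt into exon 12, which is 348 nt long, and ended 47 nt past it. The second, of 145 nt, began 45 nt into exon 16 and ended 36 nt past it. The third (chr10:119049746-119049952, 207 nt) lay 532 nt further along the transcript, began 33 nt into exon 17 and ended 55 nt past it. The fourth (chr10:119041959-119042747, 789 nt) covered 754 of the 779 nt of exon 19 and ended 35 nt past it. The fifth (chr10:119037064-119037249, 186 nt) began 60 nt into exon 21 and also ended 55 nt past it. The peaks thus differed mainly in how much exon they held, and their intronic ends fell within 20 nt of each other.

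**Figure D1:**
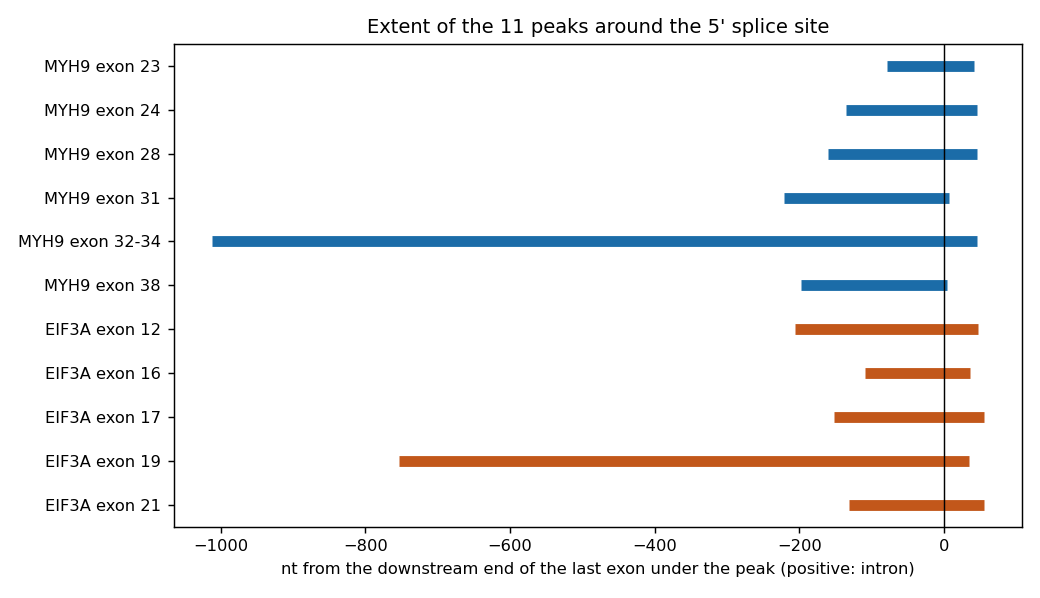
Extent of each of the 11 peaks in nt, set to 0 at the downstream end of the last exon under the peak, with the intron to the right and earlier sequence to the left. MYH9 peaks are blue and EIF3A peaks orange, and the right ends of all bars lie between 4 and 55 nt past the exon, whereas the left ends range widely with peak width.

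Over both genes, 9 of the 11 peaks crossed only a 5' splice site, 2 crossed sites of both kinds and 0 crossed only a 3' splice site. A peak counted as crossing where it held 1 nt or more both before and after an exon edge of the MANE Select or, where there is none, the canonical transcript. Across the 1915 peaks wholly inside protein-coding genes, 15.2% crossed an exon edge by this rule, and since the genes were selected by that property the share of 11 in 11 says nothing beyond the selection. Which site was crossed and how far was not part of the rule. Of the 280 crossing peaks in other protein-coding genes, 192 crossed only a 5' splice site, 50 only a 3' splice site and 38 both. The intronic overhang of the 11 peaks, the nt past the last exon, had a median of 45 nt and a range of 4 to 55 nt, and 9 of 11 lay between 30 and 70 nt. Of the other crossing peaks, 222 ended past a 5' splice site, with a median overhang of 47 nt, a range of 2 to 326 nt and 56.8% between 30 and 70 nt. The median overhang of MYH9 and EIF3A was therefore close to that of the series, and none of their peaks had the long overhangs of 91 to 110 nt that 22 other peaks had.

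**Figure D2:**
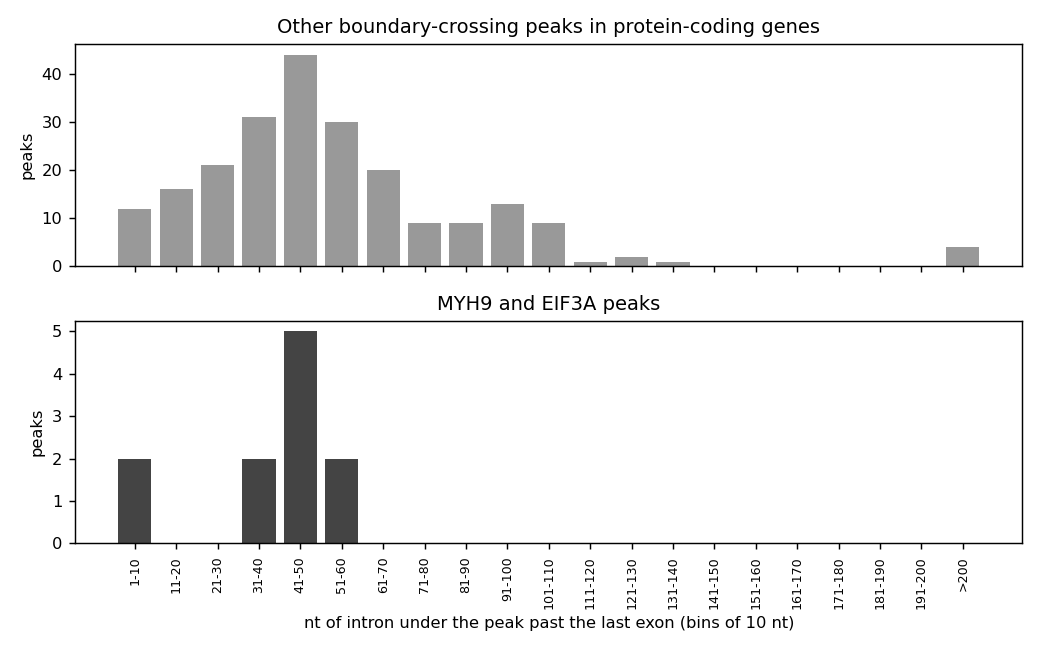
Number of peaks by the nt of intron under the peak past the last exon, in bins of 10 nt, for the 222 other crossing peaks with such an end (top) and for the 11 peaks of MYH9 and EIF3A (bottom), on separate vertical axes. Both have their tallest bar at 41 to 50 nt, with 44 and 5 peaks, and the 2 peaks of MYH9 with almost no overhang stand in the bin of 1 to 10 nt.

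The 11 peaks were wide. Their median width was 206 nt, against 111 nt for the other crossing peaks and 103 nt for all 1904 other peaks in protein-coding genes. None of the 11 was at most 110 nt wide, whereas 49.6% of the other crossing peaks and 77.2% of all other peaks were. In the genes with the next most crossing peaks, described below, their median width was 197.5 nt in SMARCA4, 456 nt in SMC1A, 145 nt in MYH10 and 121 nt in LYAR. Large width was thus not particular to MYH9 and EIF3A. A wider peak also takes in more positions where an exon edge can lie, so width was not independent of the selection. The peak of 1057 nt in MYH9 was wider than any other in a protein-coding gene, where the widest elsewhere was 966 nt. The reads behind all peaks were processed alike. Before peaks were called, each read was extended to a fixed length, which is longer than any of the 11 overhangs. The aligner reports no spliced alignments. The part of this processing in the widths and overhangs was not tested. Once 50 nt were taken off the downstream end of each peak, 4 of the 11 still crossed an exon edge, against 55.4% of the other crossing peaks. With 50 nt taken off the upstream end instead, all 11 still did, against 72.9% of the others. This was fixed by construction, since each of the 11 held at least 79 nt of exon before a 5' splice site. The others were narrower, and 50 of them crossed only a 3' splice site.

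The exons under the peaks were compared with the other internal coding exons of the same transcripts, that is, all exons but the first and last that hold no untranslated sequence. In MYH9, 8 of 38 such exons had a peak (21.1%), and in EIF3A 5 of 20 (25%), where 0.203% of the internal coding exons of all protein-coding genes did. This also follows from how the genes were selected. The MYH9 exons with a peak had a median length of 208 nt (124 to 249 nt) and the 30 with none 126.5 nt (28 to 213 nt). In EIF3A the medians were 191 nt (154 to 779 nt) with a peak and 137 nt (89 to 209 nt) without. The ranges overlapped in both genes, and exon 26 of MYH9 (213 nt) and exon 6 of EIF3A (209 nt) had no peak although they were longer than several exons that did. The difference held among neighbours: between the first and last exon with a peak, the 8 MYH9 exons with no peak had a median of 137 nt and the 5 of EIF3A 114 nt. In other genes the 310 internal coding exons with a peak had a median length of 141 nt, and the 4055 with none in the same genes 126 nt. A longer exon offers more positions for a peak, and this was not corrected for.

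**Figure D3:**
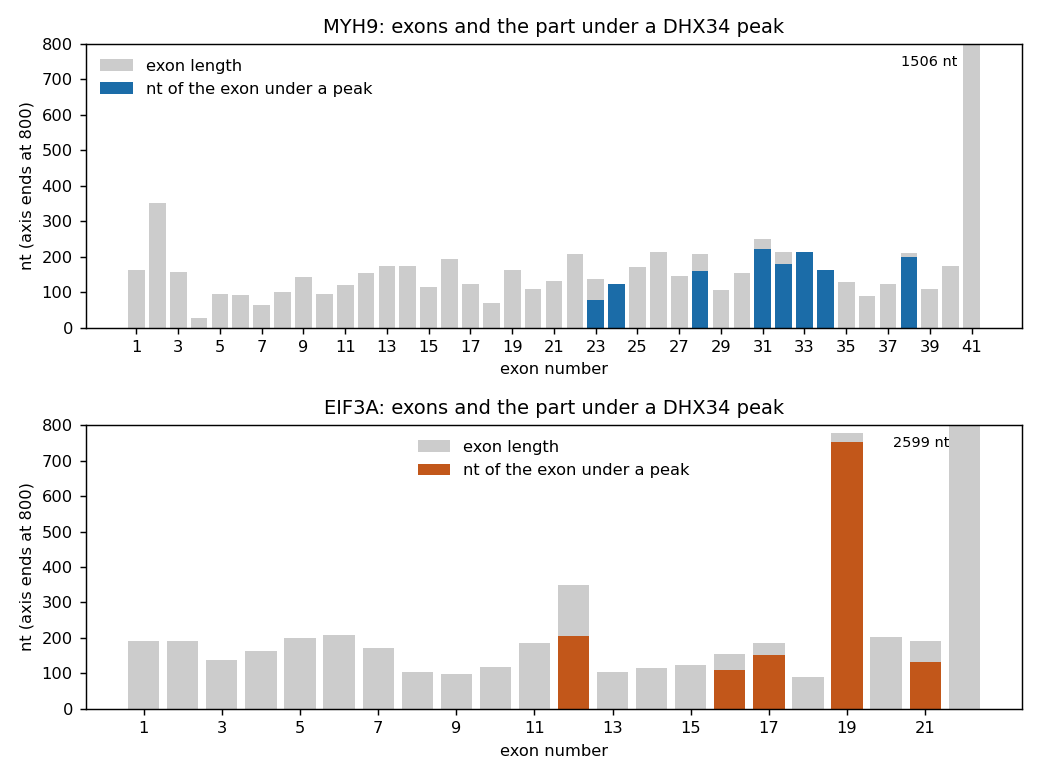
Length of each exon in nt (grey bars) and the part of it under a peak (coloured bars), by exon number, for MYH9 (top) and EIF3A (bottom). The axis ends at 800 nt, so that the last exons, of 1506 and 2599 nt, run off it; coloured bars stand only at exons 23 to 38 of MYH9 and 12 to 21 of EIF3A.

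No exon before exon 23 of MYH9 or before exon 12 of EIF3A had a peak, and neither did the last exons, which hold the 3' untranslated regions. The intron after an exon had a median of 846.5 nt with a peak and 844 nt without in MYH9, and 915 and 928 nt in EIF3A. The intron before it was shorter for exons with a peak in both genes, with medians of 609.5 and 869 nt in MYH9 and 908 and 1231 nt in EIF3A, and its ranges overlapped. In MYH9 this did not clearly hold among neighbours. Between its first and last exon with a peak, exons with none had 1904, 1125, 428, 228, 277, 1405, 764 and 83 nt before them, on both sides of 609.5 nt. In EIF3A such exons had 915, 82, 5418, 5658 and 3554 nt before them. The 5' splice sites were scored by how well their 9 nt matched the base frequencies of 189620 annotated sites, and each score was given as its percentile among them. In MYH9 the median percentile was 78.1 for exons with a peak and 45.8 for the rest. In EIF3A it was 16.2 with a peak and 61.5 without, so that the genes went opposite ways. Sites under a peak ranged from the percentile of 8.50 at EIF3A exon 16 to 96.9 at EIF3A exon 17, and the peaks over these neighbouring exons had overhangs of 36 and 55 nt.

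The bases of the peaks were rich in purines, A and G. The median share of A and G was 64.1% in the 11 peaks, 55.2% in the other crossing peaks and 53.9% in all other peaks. It was highest in the EIF3A peak over exon 16, at 76.6%, and lowest in the wide MYH9 peak, at 55.5%, whose exonic part reached 66.1% and whose intronic part 43.9%. The 6-letter run GAGGAG, searched on the gene strand in the first 100 nt of each peak, was in 5 of the 11 peaks, 12.8% of all other peaks and 20.4% of the other crossing peaks. GAAGAA was in 4 of the 11, 7.72% of all others and 17.1% of the other crossing peaks. In the 11 peaks this window lay mostly in exon, whereas 1624 of the 1904 other peaks crossed no exon edge. The share of exon in the window was not matched in these comparisons. GGTAAG and GGTGAG, common starts of an intron with the exon base before it, were not compared in that window, since the first 5' splice site lay beyond it in all but the narrowest of these peaks. Over whole peaks they were in 1 and 5 of the 11, and GGTGAG was not at a crossed 5' splice site in every such peak. The share of other peaks with these runs over their whole width was not computed, so these counts have no comparison. Near the 5' edge, at positions 6 to 15 of the peak, G made up 38.2% of bases in the 11 peaks and 37.6% in all other peaks.

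This composition belonged in large part to the region of the gene, not to the exons under peaks alone. In MYH9 the median share of A and G was 66.7% in exons with a peak and 53.8% in the rest, and in EIF3A 68.1% and 54.5%. Among the exons from the first to the last with a peak, however, those with none had 63.4% in MYH9 and 67.4% in EIF3A. The exons before that stretch had 51.6% in MYH9 and 50.6% in EIF3A. MYH9 exon 27 (68.3%) and EIF3A exon 20 (75.7%) were as rich in purines as exons with a peak and had none. G alone kept a wider gap in EIF3A, with 35.7% in exons with a peak and 26.3% in their neighbours without, although exon 20 again had 35.6%. In MYH9 the values for G were 38.6% and 35.4%. In other genes exons with a peak had a median of 57.0% A and G, and exons without one in the same genes 53.8%.

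**Figure D4:**
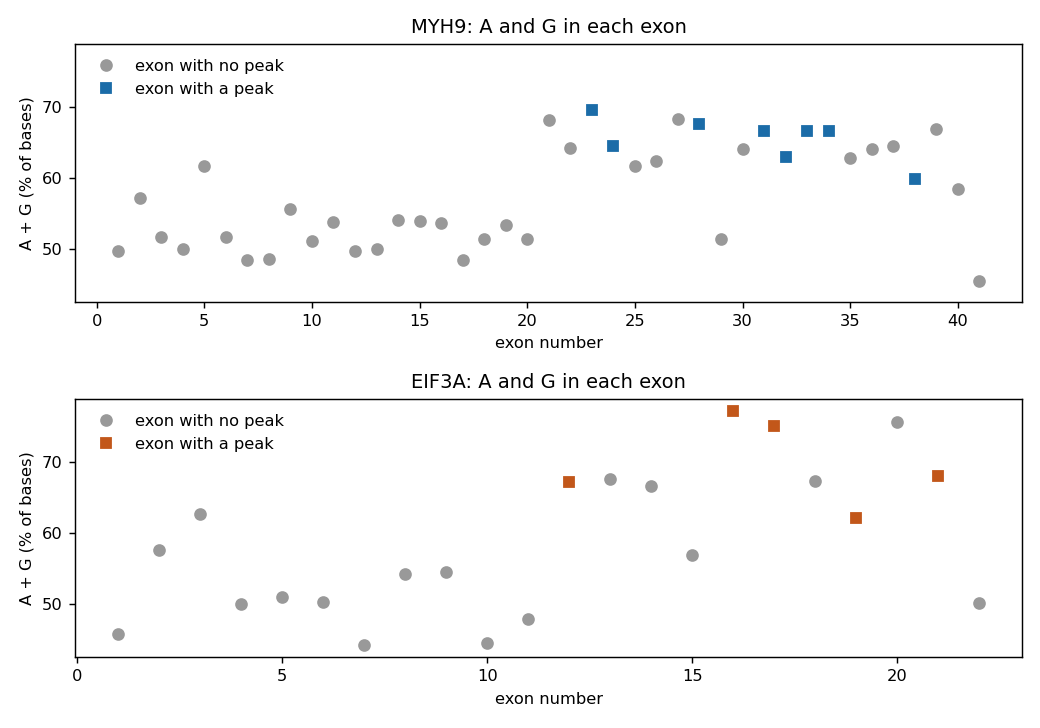
Share of A and G, in percent of bases, in each exon of MYH9 (top) and EIF3A (bottom), with exons under a peak as coloured squares and the others as grey circles. The rise near exon 21 of MYH9 and exon 12 of EIF3A takes in exons with and without a peak, whose medians beyond it are 66.7 and 63.4% in MYH9 and 68.1 and 67.4% in EIF3A.

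The same stretches stood out in the proteins, which were translated from the coding sequence. The MYH9 peaks lay over codons of 449 of 1960 residues (22.9%), between residues 966 and 1828. All 449 were in the longest run without proline, residues 837 to 1926, which takes in the coiled-coil rod, and no peak lay over codons of the motor head. Charged residues (D, E, K and R) made up 43.9% of the residues under peaks, 41.8% of those between the peaks and 28.7% of those before the first. The EIF3A peaks lay over codons of 454 of 1382 residues (32.9%), between residues 591 and 1307. There charged residues were 61.9% under peaks, 55.9% between peaks and 26.6% before the first. Arginine reached 42.2% under the peak of exon 21, and 25.6% under all EIF3A peaks against 11.7% in the rest of the protein. That rest includes the residues before the first peak, and arginine between the peaks alone was not computed. Codons made of A and G alone, which include those of glutamate and lysine, were 33.0% of the MYH9 codons under peaks and 32.6% of those between them, and in EIF3A 33.7% and 41.8%. Charge and purines thus followed the region in both genes, with little difference between what lay under the peaks and between them in MYH9.

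**Figure D5:**
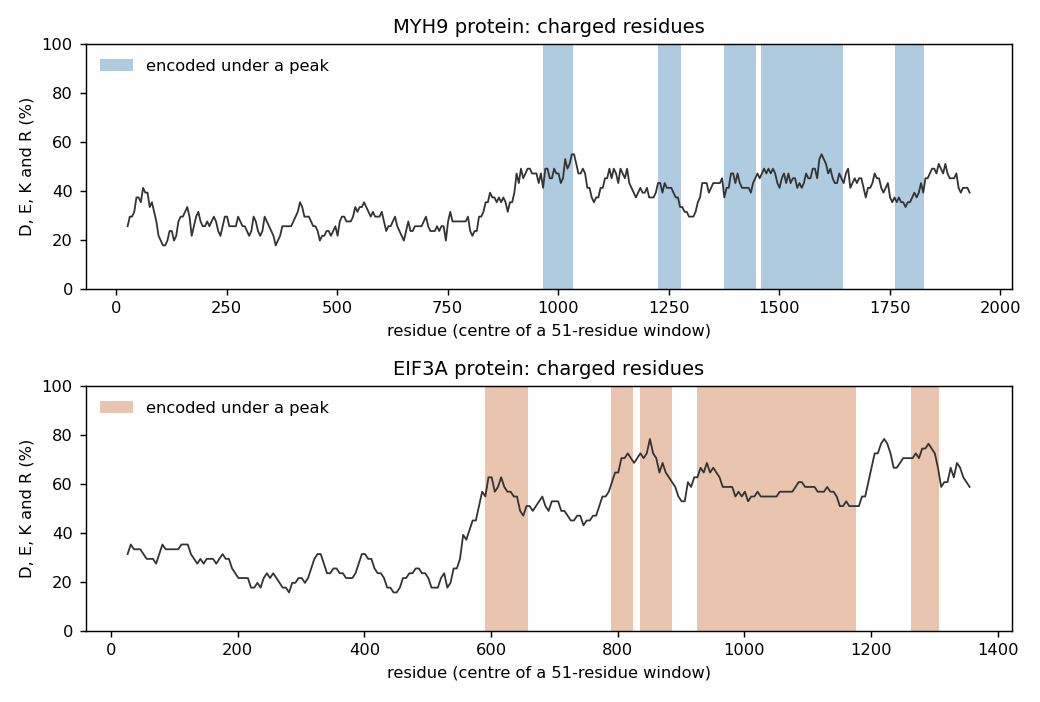
Share of charged residues (D, E, K and R, in percent) in windows of 51 residues along the MYH9 (top) and EIF3A (bottom) proteins, with the residues encoded under a peak shaded. The later part of each protein has the higher share on average, 41.8% between the MYH9 peaks and 55.9% between those of EIF3A, against 28.7 and 26.6% before the first peak, although MYH9 windows near residue 1301 dip to 29.4%.

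Exon 19 of EIF3A, under the peak of 789 nt, encodes the tandem repeat. Within its exonic part, 58.7% of bases were equal to the base 30 nt further on, where the median over the steps examined was 26.8%. The repeat is strongest in a stretch of 180 nt, chr10:119042165-119042344 on the minus strand, where 133 of 150 bases (88.7%) equalled the base 30 nt on. It encodes parts of residues 1059 to 1119, in steps of 10 residues, and is shown with the bases that recur at this step in capitals.
EIF3A exon 19: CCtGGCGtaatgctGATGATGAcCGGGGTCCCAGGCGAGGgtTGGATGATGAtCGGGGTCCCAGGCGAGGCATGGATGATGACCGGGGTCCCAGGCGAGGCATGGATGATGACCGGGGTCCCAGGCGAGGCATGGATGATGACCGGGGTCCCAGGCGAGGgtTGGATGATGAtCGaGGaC
Reads from near-identical repeat units can be hard to place, and only reads with a unique position were kept, so that the level within this stretch is uncertain. In the other 10 peaks no step reached the 61.4% that exon 19 had at 60 nt, and the highest was 53.4%, in MYH9 exon 23.

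The genes with the next most edge-crossing peaks were SMARCA4, an ATPase of chromatin remodelling complexes, with 4, and SMC1A, a cohesin subunit, LYAR and MYH10 with 3 each. In all, 225 genes had 1 such peak and 21 had 2. The SMARCA4 peaks lay over exons 10, 14, 29 and 30, crossed only 5' splice sites and had overhangs of 21 to 75 nt. MYH10 encodes the heavy chain of non-muscle myosin IIB, the closest relative of the MYH9 product among these genes, and its peaks crossed the ends of exons 20, 27 and 42 of 43 with overhangs of 42, 18 and 28 nt. By runs of equal exon length, 37 exons of MYH10 could be matched to exons of MYH9. The exons with a peak in MYH10 matched MYH9 exons 18, 25 and 40, none of which had a peak. Of the internal coding exons of MYH9, 8 of 38 (21.1%) had a peak. With 3 exons compared at this share, the lack of overlap cannot show whether the paralogs differ in position.

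Among related genes, 3 of 14 class II myosin heavy chains had a peak, MYH9, MYH10 and MYH7B, and the MYH7B peak lay within intron 32. Of 11 myosin light chains and regulators 0 had one. Of 13 eIF3 subunits 4 had a peak. Without MYH9 and EIF3A, which were selected for their peaks, the counts were 2 of 13 heavy chains and 3 of 12 subunits. The EIF3B peak (chr7:2379424-2379566, 143 nt) crossed the 5' splice site of exon 18 by 55 nt, and those of EIF3E and EIF3H lay within introns 5 and 2. Over all 19970 protein-coding genes, 7.96% had a peak. RNA levels of these genes in HEK293T were not analysed here.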

How the data were processed

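The authors' methods state that adapters were trimmed with cutadapt, molecular identifiers handled with umi_tools, reads aligned to GRCh38 with bowtie2, duplicates removed, and only uniquely placed reads outside transposable elements kept. Peaks were called with macs2, with broad peaks and reads extended to a fixed length, against merged controls. Versions are not given in the sources used here. The list, as deposited, gives chromosome, start, end and a score of unstated meaning. It was taken to be the union of these calls over replicates, which it does not itself state. The authors also describe a p-value cut before that union, and later filters on read number and on reads relative to the surrounding region. Those filters selected fewer peaks than the 2261 of the list. Among the selected peaks, those with read support repeated across replicates were a minority. The list gives no depth behind a peak, so whether the peaks of MYH9 and EIF3A are among those selected cannot be told from it.

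Starts are printed counting from 1. Peaks were placed on GENCODE release 44 in Python 3.11.15, after a test on simulated peaks. Splice sites were scored with base frequencies over 9 nt and a pseudocount of 0.5. The named genes are MYH9 and EIF3A, members of 3 family lists with a peak, and genes with at least 3 edge-crossing peaks. Members and lists were chosen with earlier results of these data known. No test was run, since the list has no replicates. Exon comparisons within the stretch with peaks, and those without the widest peaks, were added after the data were seen. Of the alternatives, the closing section gives the effect.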

Additional observations from a re-analysis of the deposited data

How the results depend on the processing

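Of 24 comparisons of a value with its alternative, 17 stayed within the spread over peaks or, for counts, within 1.5 times, and 0 turned in direction. Only the differences between exons with and without a peak could turn in direction, since the other values cannot fall below 0. None of the 11 peaks had a fourth-column value of 2 or more, so that this filter left 0. Of the other peaks in protein-coding genes, 2.31% had such a value. Edge-crossing peaks fell from 11 to 2 with the central 50 nt of each peak and to 4 without the last 50 nt, where 2 peaks crossed only a 5' splice site and their median overhang was 5 nt. Trimming the last 50 nt removes by construction the 9 overhangs shorter than that. The cause of the fall with the central 50 nt was not tested. The difference in the share of A and G between exons with and without a peak, over both genes, fell from 12.6 percentage points to 2.61 when only exons from the first to the last with a peak were compared. With the widest peak of each gene left out, the residues encoded under peaks went from 903 to 466. The difference in median exon length, 78 nt, ranged from 66.5 to 83 nt. No paired analysis was possible because the list holds no value per library. For the same reason no library could be left out, and no error over libraries stands behind any position.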
